A study of Mus musculus with 10 samples.

Results

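Bone morphogenetic protein (BMP) signalling in the vessels of bone was followed through 10 genes, 3 ligands (Bmp2, Bmp4 and Bmp6), 2 receptors (Acvrl1 and Bmpr2), the co-receptor endoglin (Eng), 2 inhibitory Smads (Smad6 and Smad7) and 2 target genes (Id1 and Id3). They were chosen by name as parts of 1 pathway, and are 10 of the 26504 gene names in the tables, of which 22828 were used. By mm10 positions, 9 of them lie at chr2:133552159-133562885 (Bmp2), chr14:46383520-46390669 (Bmp4), chr13:38345107-38500302 (Bmp6), chr15:101128522-101145336 (Acvrl1), chr1:59763400-59879014 (Bmpr2), chr2:32646595-32682669 (Eng), chr9:63953076-64022059 (Smad6), chr2:152736251-152737410 (Id1) and chr4:136143497-136145755 (Id3).

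BMP ligands are secreted dimers that bring together a type I and a type II receptor serine/threonine kinase on the cell surface. The type I receptor then phosphorylates Smad proteins, which enter the nucleus and raise transcription of Id genes and of the inhibitory Smads, and the inhibitory Smads in turn dampen the receptors. In endothelial cells (ECs) the main type I receptor is Acvrl1 (ALK1), which works with Bmpr2 and endoglin, and in bone BMP ligands are best known for driving osteoblast differentiation.

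The cells were ECs of the femur and tibia of C57BL/6 mice carrying the transgenic Cdh5-mTnG reporter, in which Cdh5 (VE-cadherin) sequences drive membrane tdTomato and nuclear GFP in ECs. Lineage-depleted cells positive for both GFP and tdTomato were sorted and sequenced by 10x Chromium 3′ single-cell RNA-seq. The 5 groups, all with this genotype and strain, were juvenile (3 weeks, male and female), adult (12 weeks, female), aged (75 weeks, female), PTH-treated (12 weeks, female) and alendronate-treated (12 weeks, female) mice, with 2 libraries each. PTH is parathyroid hormone, which builds bone when given intermittently, and alendronate is a bisphosphonate that inhibits bone resorption. The methods state that animals were pooled and that each group was sequenced in 1 experiment, so p-values measure the spread between libraries, which may be technical and does not include that between mice. In the juvenile group, age cannot be told apart from sex. The methods gave PTH daily and alendronate every other day and name PBS as the control injection, and neither they nor the labels say whether these adult libraries came from mice given PBS.

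The tables held 10653583 to 28419323 unique molecular identifiers (UMIs) per library, and 46283 of 47466 barcodes passed the filter of 500 to 6000 genes and under 25% mitochondrial UMIs. Median depth per library was 3075 to 5149 UMIs per cell. The aged libraries stood apart, with the highest median depths, median mitochondrial shares of 2.31% and 2.42% against at most 1.43% elsewhere, and UMIs of 276 gene names beginning with U, a set that was at 0 in the other tables and was left out here. PTH replicate 1 was the smallest library, with 2191 cells kept. No pair of libraries shared more than 1.36% of the barcodes of the smaller one.

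Of 43895 cells kept as ECs, 38451 fell into the 4 types compared here. These were clusters named from marker genes, with the members kept out of the clustering genes. The 4729 cells left without a name included clusters led by haemoglobin or immunoglobulin genes, so that not all cells kept need be ECs. Sinusoidal-like ECs, which line the wide vessels of the marrow, were marked by Stab2 at 1887 ± 455 CPM (UMIs scaled to equal totals, mean ± SD over 10 libraries) and numbered 18335 cells. Metaphyseal-like ECs were marked by Ramp3 (413 ± 169 CPM) and Aplnr (1036 ± 395 CPM) and numbered 11003 cells. Arterial-like ECs were marked by Gja4 (1350 ± 353 CPM) and numbered 5968 cells. Type R-like ECs were marked by Timp4 (1107 ± 532 CPM) and Aqp7 (509 ± 46 CPM), against at most 12.0 ± 4.0 and 6.70 ± 3.6 CPM in the other 3 types, and numbered 3145 cells. Aplnr was not specific to metaphyseal-like ECs, as type R-like ECs held 582 ± 325 CPM. Cdh5 was at 984 CPM or higher in each sum of the 4 types, and the leukocyte gene Ptprc was at most 1.34 CPM. Type R-like ECs were the least deep, with a median of 2080 UMIs per cell against 3459 to 3980 in the other types, and the 2 juvenile libraries and PTH replicate 1 gave only 54, 33 and 44 of these cells. In such small sums, 3 UMIs corresponded to as much as 38.9 CPM.

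The promoters of 2 target genes are shown for the letters to which Smad proteins are known to bind. They are the 270-base windows that RefSeq (GRCm38.p6) gives for Smad6 at chr9:64022040-64022309 on the minus strand and for Id3 at chr4:136143572-136143841 on the plus strand, each from 250 bases before to 20 bases after the transcription start, and position -1 is the base before the start. Capitals mark the Smad-binding letters GTCTAGAC, GTCTG and CAGAC and the GC-rich letters GGCGCC, searched on both strands, with GTCTAGAC containing neither shorter form.
Smad6: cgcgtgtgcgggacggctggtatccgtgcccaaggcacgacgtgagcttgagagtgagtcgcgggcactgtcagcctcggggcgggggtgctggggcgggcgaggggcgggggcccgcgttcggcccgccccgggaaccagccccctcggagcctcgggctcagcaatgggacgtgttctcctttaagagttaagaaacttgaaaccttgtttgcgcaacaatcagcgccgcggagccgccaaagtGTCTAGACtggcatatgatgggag
Id3: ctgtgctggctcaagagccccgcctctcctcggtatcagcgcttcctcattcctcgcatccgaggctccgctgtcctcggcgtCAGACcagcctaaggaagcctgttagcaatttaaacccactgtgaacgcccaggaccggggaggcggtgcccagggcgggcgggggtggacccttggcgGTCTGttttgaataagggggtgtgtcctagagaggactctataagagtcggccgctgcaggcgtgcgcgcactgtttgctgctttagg
The Smad6 window held the palindrome GTCTAGAC from position -4, which 0.183% of 32851 mouse promoter windows of this length held. The Id3 window held CAGAC from position -167 and GTCTG from position -68, letters that 45.4% of all windows held in either orientation. Of the other windows at hand, that of Eng held CAGAC and GTCTG, that of Bmp6 held CAGAC, that of Bmpr2 held GGCGCC, which 10.4% of all windows held, and that of Bmp4 held none. These matches describe letters and not bound sites.

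The first question was where each part of the pathway is expressed. UMIs were summed per type and library, and each type was compared with the mean of the other 3 by edgeR with the library as a block. A call needed a Benjamini-Hochberg adjusted p below 0.05 together with a change of more than 1 on the log2 scale. Of 40 pairs of a member and a type, 14 (8 higher and 6 lower) were called, where 12.3% of such pairs were called over all genes tested. Arterial-like ECs were higher for 4 members, sinusoidal-like ECs higher for 2 and lower for 3, metaphyseal-like ECs lower for 2, and type R-like ECs higher for 2 and lower for 1. Over all genes, 5.63% were higher in arterial-like ECs, 8.53% higher and 8.26% lower in sinusoidal-like ECs, 3.28% lower in metaphyseal-like ECs, and 6.34% higher and 8.26% lower in type R-like ECs, with 4.99% lower in arterial-like and 4.04% higher in metaphyseal-like ECs, where no member was called in that direction. In either direction, 16.8% were called in sinusoidal-like, 7.32% in metaphyseal-like, 10.6% in arterial-like and 14.6% in type R-like ECs. Median log2 fold changes of the 10 members were 0.89 in arterial-like, -0.26 in sinusoidal-like, -0.55 in metaphyseal-like and 0.14 in type R-like ECs, beside medians within 0.03 of 0 for all genes tested.

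**Figure D1:**
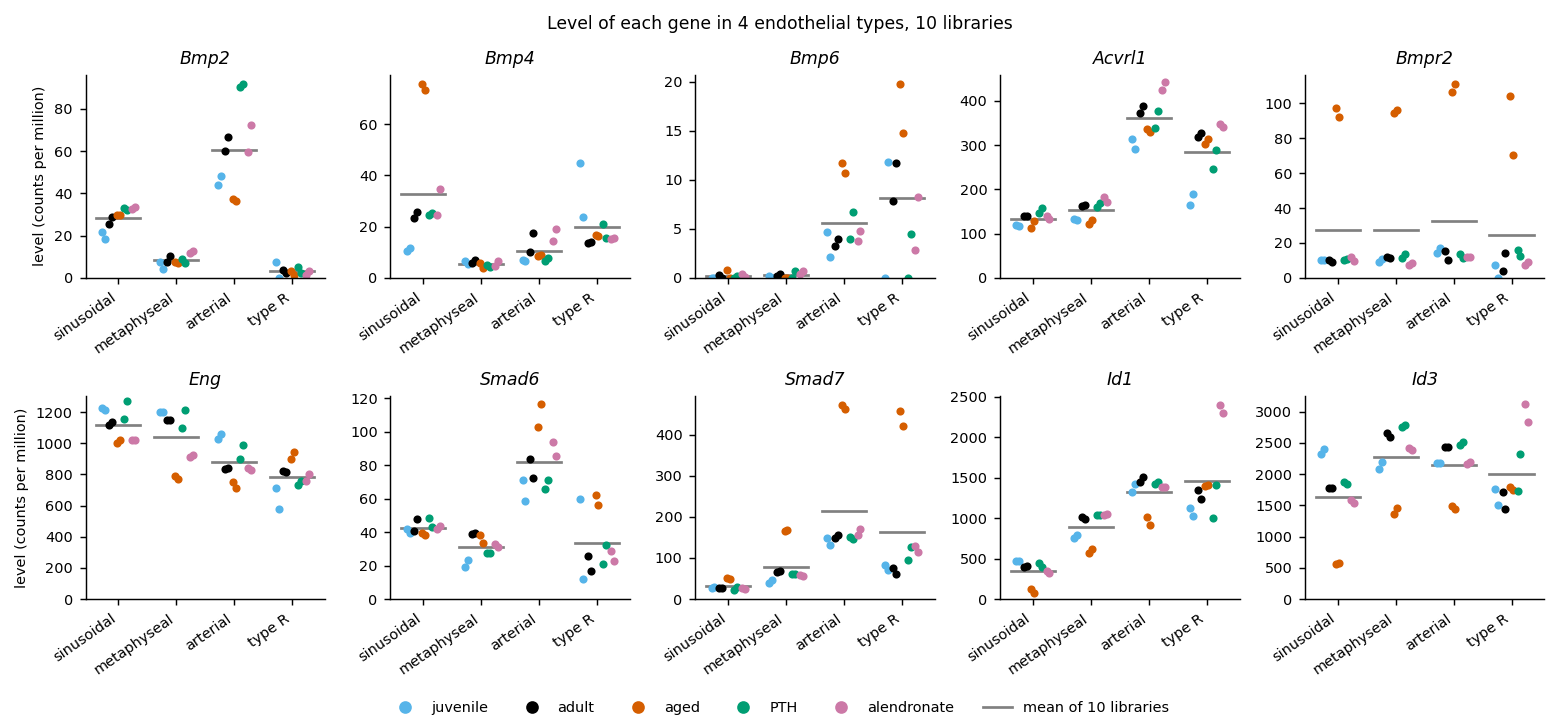
Levels of the 10 members by type, with 1 point per library and type, coloured by group, and a line for the mean of the 10 libraries. The vertical axes give CPM of the summed UMIs on linear scales. Bmp2, Acvrl1, Smad6 and Smad7 were highest in arterial-like ECs in all 10 libraries, and the aged libraries are the high points of Bmpr2 and Smad7.

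The 3 ligands differed in their levels over the types, with arterial-like ECs high for both Bmp2 and Bmp6. Among the 4 types, Bmp2 was highest in arterial-like and then sinusoidal-like ECs. Of these types, Bmp4 was highest in sinusoidal-like ECs in 8 of 10 libraries, and Bmp6 was higher in arterial-like and type R-like ECs. All 3 are secreted and are known for their power to induce bone. Bmp2 lay between 36.3 and 91.7 CPM in arterial-like ECs (median 59.8), between 18.4 and 33.7 CPM in sinusoidal-like ECs (median 29.7), between 4.37 and 13.0 CPM in metaphyseal-like ECs (median 7.69) and between 0 and 7.50 CPM in type R-like ECs (median 2.76). The 4 ranges did not overlap, except between metaphyseal-like and type R-like ECs. The log2 fold change of Bmp2 was 2.81 ± 0.11 (SE) in arterial-like ECs, 1.38 ± 0.12 in sinusoidal-like ECs and -3.25 ± 0.27 in type R-like ECs (adjusted p at most 1.2e-12). With the cluster led by Tagln and Vwf, described with type R-like ECs, counted as type R-like, the sinusoidal-like value was 0.99, below the size needed for a call. Only 20 UMIs of Bmp2 were counted in the 3145 type R-like cells.

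Bmp4 lay between 10.4 and 75.8 CPM in sinusoidal-like ECs (median 25.03), between 13.7 and 45.0 CPM in type R-like ECs (median 16.0), between 6.43 and 19.3 CPM in arterial-like ECs (median 8.67) and between 3.92 and 7.01 CPM in metaphyseal-like ECs (median 5.68). The metaphyseal-like range lay below those of sinusoidal-like and type R-like ECs. Bmp4 was called higher in sinusoidal-like ECs (1.67 ± 0.17, adjusted p = 3.9e-11) and lower in metaphyseal-like ECs (-1.51 ± 0.23, adjusted p = 8.8e-07). Type R-like and arterial-like ECs, neighbours in the order of levels, did not pass the test against each other (-0.42 ± 0.36 for arterial-like minus type R-like ECs, adjusted p = 0.41). Arterial-like ECs joined a main cluster led by Gja4 and Nebl, with 3.37 ± 1.4 CPM of Bmp4, and a smaller one led by Gkn3 and Mgp, with 33.3 ± 17 CPM, so that the place of arterial-like ECs in this order is an average over unlike clusters. The 2 libraries in which type R-like ECs held the highest value were the juvenile ones, with 6 and 2 UMIs. With types taken from single marker genes in place of clusters, the metaphyseal-like value became 0.15 and the sinusoidal-like one 0.72, below the size needed, and with the cluster led by Tagln and Vwf counted as type R-like, the sinusoidal-like value became 0.94 and the type R-like one 2.49 ± 0.21.

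Bmp6 was the rarest ligand, with 152 UMIs in arterial-like, 74 in type R-like, 16 in metaphyseal-like and 11 in sinusoidal-like ECs. Its levels were 5.57 ± 3.2 CPM in arterial-like ECs (2.14 to 11.7) and 8.15 ± 6.5 CPM in type R-like ECs (0 to 19.8), against means of 0.263 and 0.179 CPM in metaphyseal-like and sinusoidal-like ECs. Within arterial-like ECs, the cluster led by Gkn3 and Mgp held 16.2 ± 10 CPM and the main cluster 2.57 ± 2.2 CPM. It was at 0 in 5 sinusoidal-like, 4 metaphyseal-like and 2 type R-like sums. The test called it higher in arterial-like (2.72 ± 0.26) and type R-like ECs (3.37 ± 0.33) and lower in the other 2 types, and did not separate the 2 higher types (adjusted p = 0.22). Bmp6 passed the filter on low counts through the 2 higher types, as its UMIs in the other 2 were too few for the later tests between groups. These calls, which are among the 14 of the members, therefore only describe where its few UMIs lie. After thinning each cell to 1000 UMIs, 1.104% of type R-like and 0.548% of arterial-like cells held a Bmp6 UMI, against 0.0762% of removed haematopoietic cells. The shares were 0.0225% in sinusoidal-like and 0.00913% in metaphyseal-like cells. Like that of the 1313 haematopoietic cells, they rest on so few cells that their order tells nothing. These shares pool libraries that gave unequal numbers of cells, and 25 and 19 of the 74 type R-like UMIs came from the aged libraries.

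Among the receptors, Acvrl1 followed the arterial side of the bed, whereas Bmpr2 and Eng differed little between types. Acvrl1 was 361 ± 48 CPM in arterial-like ECs (291 to 443), 284 ± 64 CPM in type R-like ECs (165 to 348), 153 ± 21 CPM in metaphyseal-like ECs (123 to 183) and 133 ± 14 CPM in sinusoidal-like ECs (114 to 157). Its highest value in each library was arterial, and type R-like ECs overlapped the arterial range from below. The arterial log2 fold change was 0.99 ± 0.05 (adjusted p = 1.1e-20), just short of the size needed for a call, and that of type R-like ECs 0.61 ± 0.05. Each of the 6 pairs of types differed for Acvrl1 at adjusted p = 4.2e-03 or below, arterial-like over type R-like ECs by 0.28 ± 0.06 (adjusted p = 5.1e-04). At an adjusted p under 0.05, 59.4% of all genes differed between sinusoidal-like and metaphyseal-like and 68.5% between sinusoidal-like and arterial-like ECs. The share was 62% between sinusoidal-like and type R-like, 50.1% between metaphyseal-like and arterial-like and 49.5% between metaphyseal-like and type R-like ECs. Between arterial-like and type R-like ECs it was 33.5%.

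Bmpr2, the type II receptor that pairs with Acvrl1, had medians of 10.4, 11.4, 13.9 and 10.6 CPM in sinusoidal-like, metaphyseal-like, arterial-like and type R-like ECs and ranges that overlapped throughout. Its log2 fold changes between types were at most 0.29 in size. Its means of 24.4 to 32.4 CPM were lifted by the aged libraries, described with the age groups. Eng, which presents ligands to Acvrl1, was abundant in each type, at 1118 ± 98 CPM in sinusoidal-like, 1041 ± 176 CPM in metaphyseal-like, 879 ± 115 CPM in arterial-like and 782 ± 101 CPM in type R-like ECs. Its ranges overlapped, and its log2 fold changes of -0.31 to 0.31 passed the adjusted p in each type without reaching the size needed for a call. Exons of Eng, Acvrl1, Bmp4 and Bmp6 overlap a gene on the opposite strand (Fpgs, Gm16031, Gm15217 and Txndc5), and as the strand setting of the counting is not given in the sources used here, their levels may include reads of these partners.

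Both inhibitory Smads were highest in arterial-like ECs in all 10 libraries, with sinusoidal-like ECs next for Smad6 and type R-like ECs next for Smad7 by their means. Smad6 was 82.2 ± 18 CPM in arterial-like ECs (58.9 to 116), 42.5 ± 3.3 CPM in sinusoidal-like ECs (38.4 to 48.2), 33.7 ± 19 CPM in type R-like ECs (11.8 to 62.4) and 31.05 ± 6.9 CPM in metaphyseal-like ECs (19.2 to 39.4). Arterial-like ECs lay above the whole sinusoidal-like and metaphyseal-like ranges, while the ranges of the other 3 types overlapped. Smad6, which acts mainly against BMP receptors, was called higher in arterial-like ECs (1.20 ± 0.10, adjusted p = 9.9e-14), and arterial-like exceeded type R-like ECs by 1.24 ± 0.16 (adjusted p = 2.2e-08).

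Smad7, which recruits ubiquitin ligases to the receptor, was 214 ± 134 CPM in arterial-like ECs (132 to 472), 163 ± 147 CPM in type R-like ECs (61.1 to 457), 78.8 ± 47 CPM in metaphyseal-like ECs (39.2 to 167) and 31.1 ± 9.8 CPM in sinusoidal-like ECs (23.1 to 50.1). The sinusoidal-like range lay below those of arterial-like and type R-like ECs. It was called higher in arterial-like (1.48 ± 0.09, adjusted p = 8.6e-18) and lower in sinusoidal-like ECs (-2.04 ± 0.10, adjusted p = 2.0e-20), with 0.99 ± 0.11 in type R-like ECs just below the required size. The type R-like value was 0.75 without the 2 aged libraries, which held 578 and 541 of the 1679 type R-like UMIs of Smad7. In cells thinned to 1000 UMIs, 19.0% of arterial-like, 15.5% of type R-like and 6.39% of metaphyseal-like cells held a Smad7 UMI. These shares pool libraries that gave unequal numbers of cells. The sinusoidal-like share of 2.38% was below the 5.18% of haematopoietic cells, whose own expression of Smad7 was not tested.

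The 2 target genes differed in how far they separated the types. Id1, an inhibitor of basic helix-loop-helix factors and a classical BMP target, was 1466 ± 490 CPM in type R-like ECs (1007 to 2400.2), 1328 ± 199 CPM in arterial-like ECs (916 to 1515), 890 ± 189 CPM in metaphyseal-like ECs (569 to 1053) and 348 ± 138 CPM in sinusoidal-like ECs (79.0 to 474). Sinusoidal-like ECs lay below all other sums, and the highest type was arterial in 6 libraries and type R-like in 4. Id1 was called higher in type R-like ECs (1.06 ± 0.14, adjusted p = 1.9e-08) and lower in sinusoidal-like ECs (-1.87 ± 0.15, adjusted p = 1.1e-13). Type R-like and arterial-like ECs did not pass the test against each other (-0.20 ± 0.17 for arterial-like minus type R-like ECs, adjusted p = 0.40). The type R-like call lay near the size needed, with 0.88 without the 2 aged libraries, 0.99 and 0.97 without aged replicate 1 or 2, 0.99 and 0.999 without alendronate replicate 1 or 2, 0.99 without the library block and 0.63 with the cluster led by Tagln and Vwf added. At 1000 UMIs per cell, 70.9% of type R-like, 64.5% of arterial-like, 48.5% of metaphyseal-like and 23.8% of sinusoidal-like cells held an Id1 UMI, against 7.92% of haematopoietic cells. These shares pool libraries that gave unequal numbers of cells, and the order of the upper 2 types was not the same in each group. By library, type R-like shares were 79.5% and 80.4% with alendronate and 67.6% and 68.9% in aged mice, above arterial-like shares of 62.6% to 63.2% and 54.5% to 55.8%. They were 55.9% and 63.6% in adult, 47.7% and 65.2% in PTH and 51.9% and 65.6% in juvenile libraries, where arterial-like shares were 65.9% to 69.1%, 68.4% to 69.2% and 64.8% to 69.5%.

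Id3, a paralogue with the same mode of action, was 2266 ± 508 CPM in metaphyseal-like, 2149 ± 383 CPM in arterial-like, 1997 ± 574 CPM in type R-like and 1627 ± 622 CPM in sinusoidal-like ECs. The 4 ranges overlapped, and no type was called. Its highest type was metaphyseal-like in 4 libraries, type R-like in 4 and sinusoidal-like in 2. Metaphyseal-like, arterial-like and type R-like ECs did not differ from each other at an adjusted p of 0.05 (0.54 to 0.83), and sinusoidal-like ECs were below each of them by 0.41 to 0.53 on the log2 scale (adjusted p = 1.5e-02 or below).

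A cluster of 1870 cells led by Tagln and Vwf had the C1qtnf9 and Fmo2 markers of type R-like ECs (511 ± 161 and 356 ± 210 CPM) but little Timp4 (28.5 ± 23 CPM) or Aqp7 (31.4 ± 20 CPM). It was left without a type name and set beside type R-like ECs, without a test, in CPM of the plain total. Bmp4 was 135 ± 49 CPM in this cluster (81.5 to 262) and 20.1 ± 10 CPM in type R-like ECs, higher in the cluster in 10 of 10 libraries. The clusters joined as sinusoidal-like ECs had mean Bmp4 levels of 17.4 to 37.5 CPM, also below that of this cluster. After thinning, 10.9% of the cells of the Tagln and Vwf cluster held a Bmp4 UMI against 1.46% of type R-like cells. Id1 and Smad7 ran the other way, with Id1 at 687 ± 196 against 1470 ± 425 CPM and Smad7 at 72.7 against 169 CPM, both higher in type R-like ECs in 10 of 10 libraries. A list of mesenchymal markers summed to 116 to 252 CPM in this cluster and to 0 to 35.04 CPM in type R-like ECs, with Lepr alone at 169 ± 55 against 13.1 ± 9.3 CPM. The part of this list in the Bmp4 level was not tested.

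The next question was how the pathway changes with age. Comparisons used the sums of each type on their own, in 1 edgeR fit over the 5 groups, with a call at an adjusted p under 0.05. The levels in this and the following paragraphs are CPM scaled within a type, given as replicate 1 and replicate 2. Of the 40 pairs of a member and a type, 37 were tested, as Bmp6 in sinusoidal-like and metaphyseal-like ECs and Bmp2 in type R-like ECs had too few UMIs. All comparisons with the adult group share the same 2 adult libraries. With 2 libraries against 2, an exact permutation test cannot go below p = 0.333, so that the calls rest on the spread shared by all 10 libraries in the fit.

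Against the adult group, aged ECs differed in 27 of 37 pairs (13 higher and 14 lower), where 59.6% of all gene and type pairs were called. In sinusoidal-like ECs 3 of 9 members were higher and 5 lower (33.1% and 32.9% of all genes), in metaphyseal-like ECs 2 higher and 4 lower of 9 (32.8% and 32%), in arterial-like ECs 4 higher and 5 lower of 10 (27.7% and 29%) and in type R-like ECs 4 higher and 0 lower of 9 (23.4% and 22.4%). The largest change of a member was in Bmpr2. In sinusoidal-like ECs it was 9.79 and 8.65 CPM in adult and 86.1 and 82.0 CPM in aged libraries, in metaphyseal-like ECs 12.1 and 11.8 against 94.3 and 96.1 CPM, in arterial-like ECs 15.7 and 10.8 against 109 and 113 CPM, and in type R-like ECs 3.97 and 14.2 against 109 and 73.4 CPM. The aged libraries were far above all others in each type. The log2 fold changes were 3.18 ± 0.11, 2.99 ± 0.12, 3.05 ± 0.16 and 3.38 ± 0.38 in the same order (adjusted p at most 3.3e-11), and 0.537% to 1.58% of the genes tested in a type had a log2 fold change at least as high. The adult type R-like sums held 2 and 6 Bmpr2 UMIs, so that this fold is the least certain of the 4. The annotation behind each table is not given in the sources used here, and as only the aged tables held UMIs of the 276 gene names beginning with U, a difference in counting cannot be told apart from age for Bmpr2 or for the other age differences.

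Smad7 also rose in aged ECs of each type, most in type R-like ECs. It was 77.4 and 61.6 CPM in adult and 479 and 441 CPM in aged type R-like ECs (2.71 ± 0.16, adjusted p = 1.7e-22), 152 and 159 against 482 and 472 CPM in arterial-like ECs (1.62 ± 0.07), 65.8 and 70.2 against 164 and 167 CPM in metaphyseal-like ECs (1.29 ± 0.08), and 24.5 and 25.2 against 44.4 and 43.0 CPM in sinusoidal-like ECs (0.82 ± 0.11). Aged and adult libraries did not overlap in any type. The rise in type R-like ECs exceeded the mean rise of the other 3 types by 1.37 ± 0.17 (adjusted p = 2.9e-09). Smad6 rose with age in type R-like ECs (25.8 and 16.6 to 65.5 and 58.8 CPM, 1.52 ± 0.32, lost at 1.095 with types taken from single marker genes) and arterial-like ECs (86.2 and 74.3 to 105 and 119 CPM, 0.48 ± 0.11). It fell slightly in sinusoidal-like ECs (-0.28 ± 0.10, adjusted p = 1.6e-02). That call was lost under 5 of 21 alternatives, with values from -0.41 to -0.12 over all of them. The losses include leaving out adult replicate 2 (-0.18), aged replicate 1 (-0.31) or aged replicate 2 (-0.28). Without integration of the libraries before clustering, the arterial-like value of Smad6 was -0.28 and called in the opposite direction (adjusted p = 1.3e-02), and the metaphyseal-like rise of Smad7 was 0.26 and no longer called.

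Id1 and Id3 moved the other way from Smad7 outside type R-like ECs. Id1 in sinusoidal-like ECs was 380 and 393 CPM in adult and 109 and 70.4 CPM in aged libraries (-2.10 ± 0.08, adjusted p = 5.6e-24), and it fell by 0.78 ± 0.05 in metaphyseal-like and by 0.62 ± 0.05 in arterial-like ECs. Id3 fell from 1694 and 1704 to 497 and 519 CPM in sinusoidal-like ECs (-1.74 ± 0.04), and by 0.93 ± 0.05 and 0.73 ± 0.05 in metaphyseal-like and arterial-like ECs. In type R-like ECs, Id1 was 1369 and 1241 CPM in adult and 1468 and 1483 CPM in aged libraries (0.18 ± 0.10, adjusted p = 0.13), and Id3 was 1740 and 1447 against 1879 and 1836 CPM (0.22 ± 0.10, adjusted p = 0.055). The effect of age in type R-like ECs differed from the mean of the other types by 1.24 ± 0.09 for Id1 (adjusted p = 1.2e-18) and 1.25 ± 0.07 for Id3 (adjusted p = 3.2e-23), where 5.05% of all genes were called in that test. At 1000 UMIs per cell, Id1 was found in 24.9% and 25.2% of adult and in 6.75% and 10.95% of aged sinusoidal-like cells, whereas in type R-like cells both aged shares lay above both adult ones.

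Of the ligands, Bmp4 rose with age in sinusoidal-like ECs, from 22.3 and 24.7 to 67.2 and 65.1 CPM (1.497 ± 0.11, adjusted p = 3.0e-15), and this effect differed from that of the other types by 1.87 ± 0.24 (adjusted p = 3.5e-09). In juvenile sinusoidal-like ECs it was 10.0 and 11.1 CPM (-1.15 ± 0.14, adjusted p = 6.6e-09), so that the 3 ages did not overlap. In arterial-like ECs, aged libraries had more Bmp6 (3.34 and 4.10 against 12.0 and 10.95 CPM, 1.62 ± 0.38, adjusted p = 5.5e-04) and less Bmp2 (61.9 and 68.7 against 38.3 and 37.1 CPM, -0.79 ± 0.14, adjusted p = 8.2e-06), of which the Bmp6 call was lost without integration (0.28) and the Bmp2 call with types taken from single marker genes (-0.34). The cluster led by Gkn3 and Mgp, the richer of the 2 arterial-like clusters in Bmp6 and the poorer in Bmp2 (32.5 ± 16 against 71.2 ± 24 CPM), made up 26.1% of adult and 30.3% of aged arterial-like cells, and its part was not tested. Acvrl1 and Eng fell in aged sinusoidal-like, metaphyseal-like and arterial-like ECs by 0.20 to 0.59 on the log2 scale, and in type R-like ECs Acvrl1 gave -0.01 ± 0.12. In arterial-like ECs the Acvrl1 call was lost under 3 of 21 alternatives, without adult replicate 2 or aged replicate 2 (both -0.18) among them. Its values ran from -0.91 to -0.17 over the alternatives. The arterial-like Eng call was lost without aged replicate 2 (-0.16) and with types from single marker genes (-0.08). Eng in type R-like ECs passed by a small margin (0.23 ± 0.10, adjusted p = 4.9e-02), a call lost under 13 of 21 alternatives, among them the removal of juvenile replicate 2, either adult library, aged replicate 2, PTH replicate 1 or either alendronate library (0.19 to 0.23), and that was -0.05 with the cluster led by Tagln and Vwf added.

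Other measures also moved in the aged libraries. The sum of ribosomal RNA genes and mmu-mir-6236, chosen after its values were seen, was 10366 to 12471 CPM in aged and 557 to 938 CPM in other libraries over the 4 types. A fixed list of dissociation-response genes summed to 694 to 980 CPM in aged and 1148 to 2049 CPM in adult ECs. The clusters joined as sinusoidal-like ECs also had other shares, with 23.9% of aged and 12.2% of adult cells in that led by Adamts5 and Vcam1, 4.06% and 16.9% in that led by C5ar2 and Zfp691, and 4.95% and 12.1% in that led by Fos and Rgs4. The part of these measures in the age differences, those of Id1 and Id3 in sinusoidal-like ECs among them, was not tested.

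**Figure D2:**
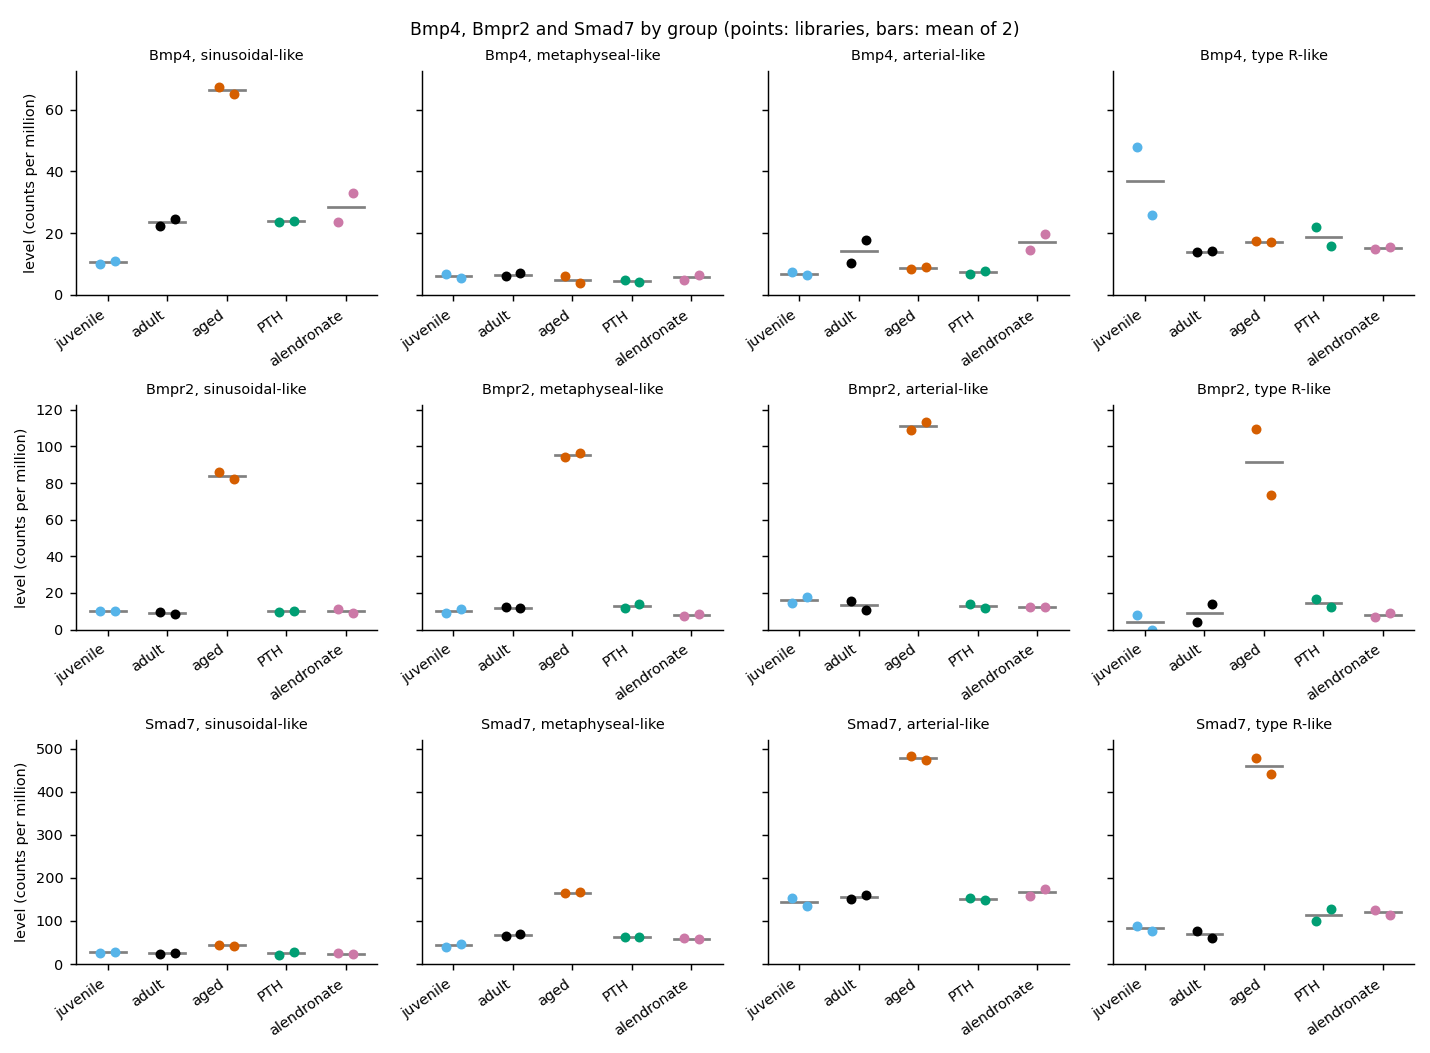
Levels of Bmp4, Bmpr2 and Smad7 in each library, by type and group. Points are libraries, lines are means of 2, and the vertical axes give CPM on linear scales. Aged libraries lie above all others for Bmpr2 in each type, and Bmp4 in sinusoidal-like ECs runs from 10.0 CPM in juvenile to 67.2 CPM in aged libraries.

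Juvenile ECs differed from adult ECs in 15 of 37 pairs (4 higher and 11 lower), beside 23.2% of all gene and type pairs. In sinusoidal-like ECs 3 of 9 members were higher and 3 lower (18.8% of all genes in each direction), in metaphyseal-like ECs 0 higher and 5 lower of 9 (14.6% and 14.7%), in arterial-like ECs 1 higher and 2 lower of 10 (7.02% and 7.51%) and in type R-like ECs 0 higher and 1 lower of 9 (1.52% and 1.63%). Acvrl1 was lower in each type, by 0.22 ± 0.05 in sinusoidal-like, 0.32 ± 0.07 in metaphyseal-like, 0.34 ± 0.08 in arterial-like and 0.80 ± 0.23 in type R-like ECs (adjusted p at most 3.2e-02), the last from sums of 54 and 33 cells with 175 and 207 CPM against 323 and 329 CPM. The Id genes went in opposite directions in sinusoidal-like and metaphyseal-like ECs. Id3 in sinusoidal-like ECs was 2245 and 2324 CPM in juvenile and 1694 and 1704 CPM in adult libraries (0.43 ± 0.04, adjusted p = 5.6e-13), and in metaphyseal-like ECs 2109.6 and 2224 against 2714 and 2641 CPM (-0.31 ± 0.05, adjusted p = 1.6e-06). Id1 followed with 0.24 ± 0.06, a call lost with DESeq2 (0.25), and -0.37 ± 0.05. The difference of the sinusoidal-like effect from the other types was 0.54 ± 0.06 for Id3 (adjusted p = 1.1e-09) and 0.47 ± 0.08 for Id1 (adjusted p = 2.8e-05).

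Metaphyseal-like ECs of juvenile mice also held less Smad6 (19.5 and 23.5 against 39.8 and 40.1 CPM, -0.90 ± 0.12) and less Smad7 (39.9 and 47.0 against 65.8 and 70.2 CPM, -0.65 ± 0.09), with adjusted p at most 4.4e-07. Eng was higher in juvenile sinusoidal-like (0.13 ± 0.04) and arterial-like ECs (0.31 ± 0.06), Bmp2 was lower in sinusoidal-like (-0.41 ± 0.11) and Id3 in arterial-like ECs (-0.16 ± 0.05). Of these, the sinusoidal-like Eng call was lost without juvenile replicate 1 (0.12) or adult replicate 1 (0.11), that of Bmp2 without juvenile replicate 2 (-0.29) or adult replicate 2 (-0.32), and that of Id3 without any 1 of the 2 juvenile and 2 adult libraries (-0.16). The arterial-like Acvrl1 call was lost without juvenile replicate 2 (-0.28) and without integration (-0.15). A single cluster led by Igfbp5 and Ramp3 made up 53.1% of juvenile and 34.9% of adult metaphyseal-like cells, and that led by Rbp7 and Ramp3 27.2% and 47.4%. The latter had the highest mean of the metaphyseal-like clusters for each member called lower in these juvenile cells. Its Smad6 was 43.7 CPM against 23.1 and 22.5 CPM, and its Smad7 was 105 CPM against 76.1 and 49.3 CPM. The dissociation-response list summed to 467 to 1214 CPM in juvenile sums of the 4 types. The part of these clusters or of this list in the juvenile differences was not tested. In juvenile type R-like ECs, Acvrl1 was the 1 member called of 9 tested. The call was lost under 9 of 21 alternatives, and its value ran from -1.10 to -0.51 over all of them. The losses include DESeq2 and leaving out any 1 of the 2 juvenile and 2 adult libraries (-0.74 to -0.91).

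The last question was how the pathway differs under the bone-active drugs. PTH gave calls in 4 of 37 pairs (3 higher and 1 lower), beside 9.69% of all gene and type pairs. By type, 1 of 9 members was lower in metaphyseal-like ECs (8.42% of all genes higher and 8.76% lower), 1 of 10 higher in arterial-like ECs (3.48% and 3.97%), 2 of 9 higher in type R-like ECs (1.62% and 1.46%) and 0 of 9 called in sinusoidal-like ECs (5.15% and 3.79%). Of these, 2 lay in type R-like ECs, Id3 (1740 and 1447 CPM in adult, 1816 and 2326 CPM in PTH libraries, 0.41 ± 0.10, adjusted p = 7.4e-03) and Smad7 (77.4 and 61.6 against 98.8 and 127 CPM, 0.79 ± 0.22, adjusted p = 3.0e-02). PTH replicate 1 held 44 type R-like cells. Without PTH replicate 2 the values were 0.18 for Id3 and 0.49 for Smad7, without adult replicate 2 they were 0.28 and 0.64, and without adult replicate 1 that of Smad7 was 0.97, none of them called. With the cluster led by Tagln and Vwf added they were 0.09 and 0.17, and in all the calls were lost under 6 and 7 of 21 alternatives. DESeq2 called 1 of the 4, Smad6. In arterial-like ECs Bmp2 was 92.1 and 92.9 CPM with PTH and 61.9 and 68.7 CPM without (0.51 ± 0.11, adjusted p = 3.1e-03, lost at 0.44 without adult replicate 1 and 0.50 without PTH replicate 2), and in metaphyseal-like ECs Smad6 was 27.7 and 27.8 against 39.8 and 40.1 CPM (-0.53 ± 0.11, adjusted p = 4.6e-04, lost at -0.501 with types taken from single marker genes). The metaphyseal-like cluster led by Rbp7 and Ramp3, with 43.7 ± 8.4 CPM of Smad6 against 23.1 ± 10 and 22.5 ± 6.5 CPM in the other 2, made up 39.8% of PTH and 47.4% of adult cells, and its part was not tested. In sinusoidal-like ECs edgeR and DESeq2 called 0 of 9 members, and 3 of them (Acvrl1, Bmp2 and Eng) had an unadjusted p under 0.05 in edgeR.

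Alendronate gave calls in 10 of 37 pairs (4 higher and 6 lower), beside 11.1% of all gene and type pairs. In sinusoidal-like ECs 1 of 9 members was higher and 3 lower (10.1% and 8.07% of all genes), in metaphyseal-like ECs 2 of 9 were lower (7.65% of all genes higher and 5.4% lower) and in arterial-like ECs 1 of 10 was lower (3.74% and 3.28%). In type R-like ECs, 3 of 9 members were higher, where 1.28% of genes were higher and 1.11% lower. Id1 was 1369 and 1241 CPM in adult and 2364 and 2281 CPM in alendronate libraries (0.83 ± 0.09, adjusted p = 4.5e-10), Id3 was 1740 and 1447 against 3080 and 2821 CPM (0.89 ± 0.09, adjusted p = 6.5e-11), and Smad7 was 77.4 and 61.6 against 126 and 114 CPM (0.78 ± 0.19, adjusted p = 1.1e-02). The rises of Id1 (0.66 to 0.91) and Id3 (0.65 to 1.05) were called under all 21 alternatives, which include DESeq2 and each library left out. That of Smad7 was lost under 7 of 21 alternatives and ran from 0.60 to 0.97 over all of them. The losses include DESeq2 and leaving out adult replicate 1 (0.97), adult replicate 2 (0.65) or alendronate replicate 1 (0.70). The alendronate libraries held the 2 highest type R-like values of Id1 and Id3 among all 10 libraries. At 1000 UMIs per cell, 79.5% and 80.4% of alendronate type R-like cells held an Id1 UMI, against 55.9% and 63.6% of adult ones.

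In the other 3 types neither Id gene was called higher with alendronate. The cluster led by Tagln and Vwf, outside these types and not tested by itself, held more of both. In CPM of the plain total, its Id1 was 652 and 707 in adult and 1019 and 970 in alendronate libraries. Its Id3 was 1155 and 1411 against 1542 and 1484. In sinusoidal-like ECs Id1 fell by 0.25 ± 0.06 (380 and 393 to 337 and 312 CPM) and Id3 by 0.19 ± 0.04, in arterial-like ECs Id3 fell by 0.17 ± 0.05, and in metaphyseal-like ECs neither was called. The effect in type R-like ECs exceeded the mean effect in the other types by 0.95 ± 0.08 for Id1 (adjusted p = 4.3e-14), 1.07 ± 0.07 for Id3 (adjusted p = 1.8e-20) and 0.85 ± 0.19 for Smad7 (adjusted p = 3.6e-03), where 1.26% of all genes were called. The difference of Smad7 was not called without adult replicate 2 (0.67) or alendronate replicate 1 (0.78). In type R-like ECs the receptors gave 0.06 ± 0.12 for Acvrl1, -0.12 ± 0.62 for Bmpr2 and -0.10 ± 0.10 for Eng, and Bmp4 gave 0.12 ± 0.47. Elsewhere, Eng fell in sinusoidal-like (-0.14 ± 0.04) and metaphyseal-like ECs (-0.32 ± 0.05), Bmpr2 fell in metaphyseal-like (-0.58 ± 0.20) and Bmp2 rose in sinusoidal-like ECs (0.30 ± 0.10). The Bmpr2 call was lost under 19 of 21 alternatives, each adult (-0.56 and -0.60) and alendronate library (-0.50 and -0.67) left out among them. In sinusoidal-like ECs, that of Bmp2 was lost without adult replicate 1 (0.21) or alendronate replicate 1 (0.32) or 2 (0.28), that of Eng without adult replicate 2 (-0.12) or alendronate replicate 1 (-0.14) or 2 (-0.13), that of Id1 without alendronate replicate 2 (-0.19), and that of Id3 with types from single marker genes (-0.12). The arterial-like Id3 call was lost without any 1 of these 4 libraries (-0.15 to -0.18). The dissociation-response list summed to 2558 and 2647 CPM in alendronate against 1384 and 1535 CPM in adult type R-like ECs, and was also higher in alendronate than in adult libraries in the other 3 types. Its part in the Id difference was not tested.

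**Figure D3:**
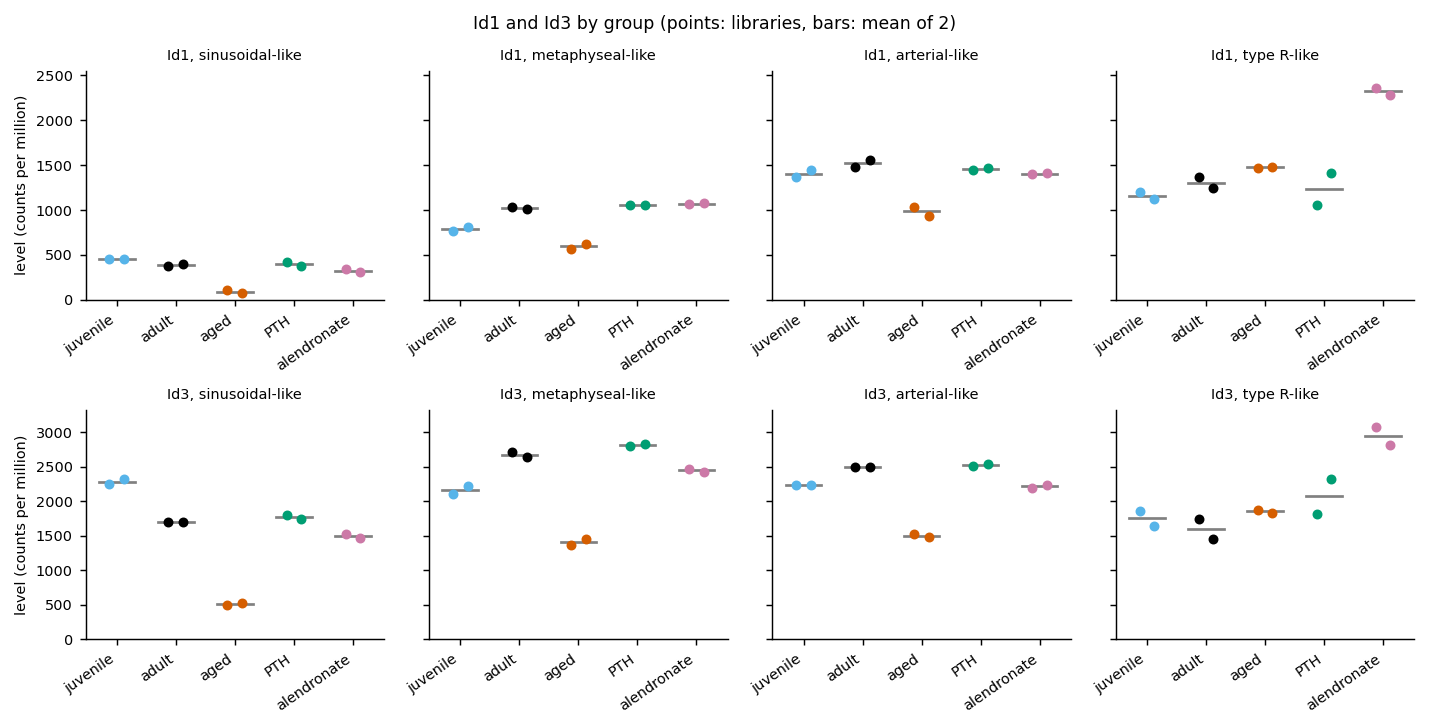
Levels of Id1 and Id3 in each library, by type and group. Points are libraries, lines are means of 2, and the vertical axes give CPM on linear scales. In type R-like ECs both alendronate libraries lie above all others, and in sinusoidal-like ECs both aged libraries lie below all others.

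Set directly against each other, PTH and alendronate differed in 15 of 37 pairs (9 higher and 6 lower with PTH), beside 12.9% of all pairs. By type, 3 of 9 members were higher in sinusoidal-like ECs (6.71% of all genes higher and 7.39% lower), 3 higher and 1 lower of 9 in metaphyseal-like ECs (9.59% and 11.9%), 3 higher and 3 lower of 10 in arterial-like ECs (4.52% and 5.21%) and 2 of 9 lower in type R-like ECs (1.15% and 1.5%). The drugs were given on different schedules, and this comparison shares its libraries with those against the adult group. Type R-like Id1 was lower with PTH, at 1054 and 1413 CPM against 2364 and 2281 CPM (-0.86 ± 0.10, adjusted p = 3.6e-10), and so was Id3 (-0.47 ± 0.09, adjusted p = 4.7e-04, lost without alendronate replicate 1 at -0.42). In sinusoidal-like ECs the same genes were higher with PTH, Id1 by 0.29 ± 0.07 and Id3 by 0.24 ± 0.04. The difference of the type R-like effect from the other types was -0.97 ± 0.09 for Id1 and -0.70 ± 0.07 for Id3 (adjusted p at most 1.7e-12). Smad7 in type R-like ECs gave 0.01 ± 0.17 between the drugs. The dissociation-response list was at 1229.8 to 1241 CPM with PTH in type R-like ECs, below both alendronate libraries, and its part was not tested. In arterial-like ECs PTH libraries held less Bmp4 (6.90 and 7.69 against 14.5 and 19.6 CPM, -1.18 ± 0.26, adjusted p = 2.0e-03), Acvrl1 and Smad6 and more Bmp2, Eng and Id3, and in metaphyseal-like ECs they held more Bmpr2, Eng and Id3 and less Bmp2. The Bmp4-rich cluster led by Gkn3 and Mgp made up 26.8% of arterial-like cells with PTH and 35.7% with alendronate, and its part in the Bmp4 difference was not tested. The arterial-like calls were each lost without at least 1 drug library, that of Bmp4 without alendronate replicate 2 (-0.95), of Acvrl1 without alendronate replicate 2 (-0.24), of Smad6 without PTH replicate 1 (-0.34), PTH replicate 2 (-0.45) or alendronate replicate 1 (-0.31), of Bmp2 without PTH replicate 2 (0.46) or alendronate replicate 1 (0.33), of Eng without PTH replicate 2 (0.11) or alendronate replicate 1 (0.19) or 2 (0.18), and of Id3 without alendronate replicate 1 (0.17) or 2 (0.20). The metaphyseal-like Bmp2 call was lost without PTH replicate 2 (-0.45) or alendronate replicate 1 (-0.73) or 2 (-0.62), that of Bmpr2 without PTH replicate 2 (0.53) or alendronate replicate 1 (0.64), and the sinusoidal-like Id1 call without alendronate replicate 2 (0.23). With types from single marker genes, the sinusoidal-like Id1 (0.07) and Id3 (0.14), arterial-like Bmp4 (-0.42), Acvrl1 (-0.13), Smad6 (-0.08), Eng (0.19) and Id3 (0.13) and metaphyseal-like Bmp2 (-0.26) and Bmpr2 (0.43) were lost too.

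**Figure D4:**
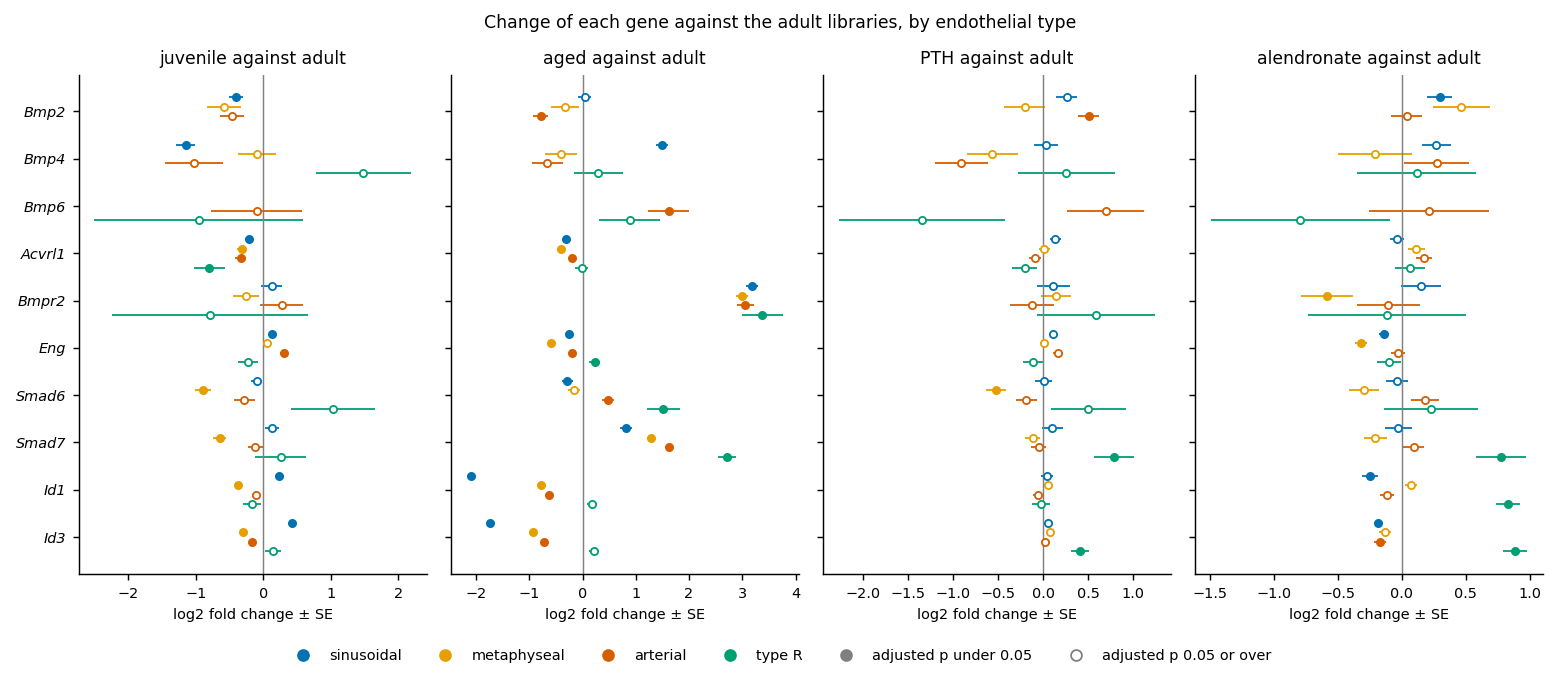
Log2 fold changes of the 10 members in each type against the adult libraries for juvenile, aged, PTH and alendronate libraries, with bars for 1 SE and filled points for an adjusted p under 0.05 over all genes tested. The largest are the rises of Bmpr2 in aged ECs (2.99 to 3.38) and of Smad7 in aged type R-like ECs (2.71).

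The wider pathway was described from a fixed list of 69 ligands, receptors, antagonists, Smads and targets of BMP and the neighbouring TGF-β branch, of which 62 were used and 31 besides the members were tested between types. Sinusoidal-like ECs were higher for 6 and lower for 10 of them, metaphyseal-like ECs higher for 2 and lower for 5, arterial-like ECs higher for 9 and lower for 3, and type R-like ECs higher for 8 and lower for 6. Over all genes, the shares higher and lower were 8.53% and 8.26% in sinusoidal-like, 4.04% and 3.28% in metaphyseal-like, 5.63% and 4.99% in arterial-like, and 6.34% and 8.26% in type R-like ECs. Tmem100, a target of ALK1 signalling in arterial endothelium, had log2 fold changes of 4.85 in arterial-like, 2.83 in type R-like, -3.79 in metaphyseal-like and -3.88 in sinusoidal-like ECs. Id4, a further Id gene, had 2.05 in sinusoidal-like and 2.12 in metaphyseal-like but -1.31 in arterial-like and -2.86 in type R-like ECs, where Id1 had -1.87, 0.01, 0.79 and 1.06. Tgfbr3, a co-receptor also called betaglycan, was higher in sinusoidal-like (2.21) and lower in arterial-like ECs (-1.63). Tgfb2, a TGF-β ligand, was higher in arterial-like (4.39) and type R-like (1.61) and lower in sinusoidal-like ECs (-5.06). Hey1, a transcriptional repressor also driven by Notch, was lower in sinusoidal-like (-4.84) and metaphyseal-like ECs (-1.55). It was higher in arterial-like (3.64) and type R-like ECs (2.75). The antagonist Nbl1 was higher in type R-like (2.82) and lower in sinusoidal-like ECs (-1.41). The pseudoreceptor Bambi was higher in metaphyseal-like (1.43) and lower in type R-like ECs (-1.54). The BMP-binding matrix protein Mgp was lower in metaphyseal-like (-2.60) and sinusoidal-like (-1.62) and higher in arterial-like ECs (4.02). Ltbp3, which stores latent TGF-β, was lower in type R-like ECs (-2.17).

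**Figure D5:**
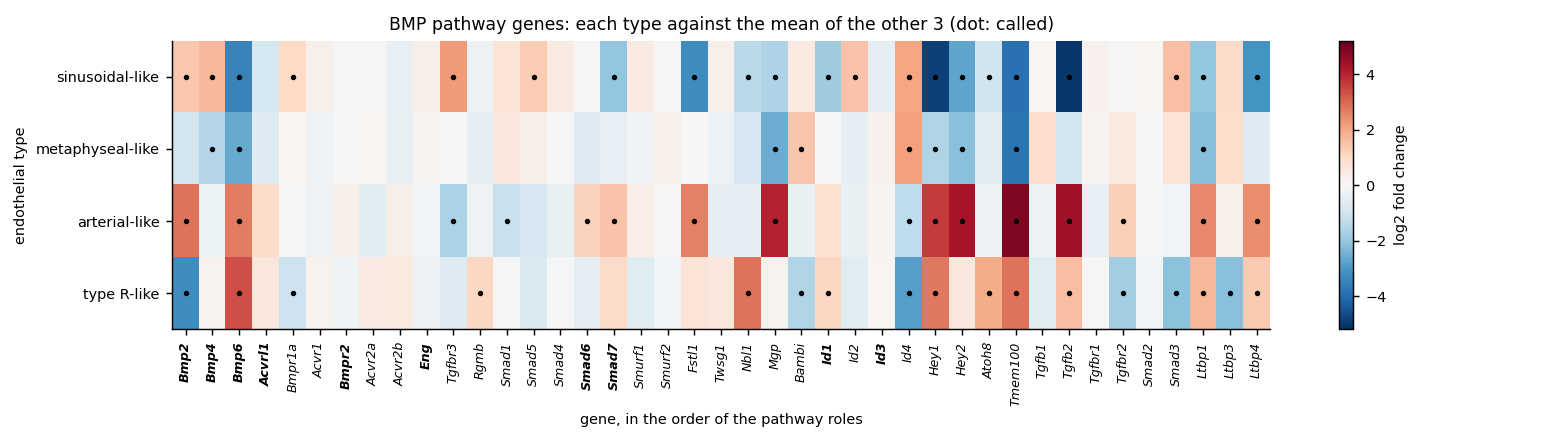
Log2 fold changes of each type against the mean of the other 3 for the members (bold) and the other pathway genes tested, drawn as colours from blue (lower) to red (higher) with a dot for each call. Tmem100 (4.85) and Tgfb2 (4.39) are among the darkest red cells of arterial-like ECs, and Id4 is blue in type R-like ECs (-2.86).

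Within type R-like ECs, 27 of these other genes were tested between groups. Aged libraries were higher for 9 and lower for 4 (23.4% and 22.4% of all genes), with Atoh8, a BMP-induced transcription factor, at 1.91 and Smurf2, a ubiquitin ligase of Smad proteins, at 1.83, and with Bambi at -2.03 and Nbl1 at -1.76. PTH libraries were higher for 4 (Mgp 1.34 and Tgfbr2 1.19), beside 1.62% of all genes. Alendronate libraries were higher for 2 (Mgp 0.97 and Hey1 0.93), beside 1.28%, and juvenile libraries for 3 (Fstl1 1.53 and Tgfbr2 1.41), beside 1.52%. Between PTH and alendronate, Fstl1 was higher (0.73) and Hey1 lower (-0.60) with PTH, beside 1.15% and 1.5% of all genes.

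The genes whose levels ran most like those of each member were found by Pearson's r of log2(CPM + 1) over the 40 sums, which share 10 libraries, so that r describes these sums and carries no p. The nearest gene was Map4 for Smad7 (r = 0.97), Sh3bp4 for Acvrl1 (0.95), Slk for Bmpr2 (0.94) and Tubb2a for Id1 (0.94). Hspa8, a heat-shock protein, was nearest to Id3 (0.89), Ano6 to Bmp6 (0.87), Galnt15 to Bmp4 (0.83) and Reep1 to Eng (0.83). Ezr, which links the membrane to actin, was nearest to both Bmp2 (0.85) and Smad6 (0.87).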

How the data were processed

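Single-cell RNA-seq tables of 10 libraries (5 groups of 2) were used. The deposited values are raw counts of UMIs per gene and cell, made by the authors with UMI-tools 1.1.2, STAR 2.7.10a and featureCounts 2.0.3 on mm10 per the submitters' processing notes, without normalization. The annotation release, the strand setting and which library used V2 or V3 chemistry are not given in the sources used here. The labels gave the groups and the replicate numbers. The members and all gene lists were chosen with earlier results of these data known.

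Cells with 500 to 6000 genes and under 25% mitochondrial UMIs and genes in at least 3 cells were kept, from library totals of 10653583 to 28419323 UMIs, which left medians of 3075 to 5149 UMIs per cell after it. Clusters of haematopoietic, erythroid, mesenchymal and mural cells were removed. No doublet caller was run. The cells kept as ECs were clustered with Seurat 5.3.0 (anchors between libraries, 2000 variable features, 30 principal components, resolution 0.5). Variable features excluded the members, the pathway list and cell-cycle genes, but not genes that move with them. A cluster took a name from at least 3 markers up by over 0.5 on the log2 scale, and, by a rule chosen after seeing the data, only where the defining genes of the type were up by over 1.5 on average.

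UMIs were summed per type and library (at least 20 cells) and tested with edgeR 4.0.16 in R 4.3.3 (filterByExpr, TMM factors, quasi-likelihood, Benjamini-Hochberg over all genes tested), with the library as a block between types and in the test of differences of effects. SDs are over libraries. SEs are the size of the log2 fold change divided by the square root of the quasi-likelihood F statistic. Shares of cells with a UMI are pooled over libraries, or per library where 2 are given, after thinning to 1000 UMIs. They leave out 337 type R-like, 589 sinusoidal-like, 125 arterial-like and 55 metaphyseal-like cells below that depth. Removed haematopoietic cells (1313, median 5264 UMIs) were set beside them as the background, and whether these express the members themselves was not tested. Shares and sums cover counting error and the spread between libraries only. The named genes are the 10 members, up to 2 pathway genes called higher and 2 called lower with the largest change in a comparison, and the 3 genes most like each member, of which the text gives the nearest. Alternatives were other resolutions, no integration, types by single marker genes, all variable features, a stricter cell filter, DESeq2 1.42.0, RLE size factors, keeping genes of low count, a replicate block and leaving each library out in turn. Leaving out both aged libraries, adding the cluster led by Tagln and Vwf and all alternatives of the differences of effects were chosen after seeing the data. The scripts were tested on simulated data. Python 3.11.15 with pandas 2.3.3 and matplotlib 3.10.9 was used for sums and figures.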

Additional observations from a re-analysis of the deposited data

Results flagged for a closer look

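The effect of a group in 1 type was compared with its mean effect in the other 3 types by edgeR, and 46 of 200 such differences of the members passed an adjusted p under 0.05 over all genes tested. Values are differences of log2 fold changes, and the comparisons against the adult group share its 2 libraries.

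For aged against adult ECs, 15 differences passed. In type R-like ECs they were 1.24 for Id1, 1.25 for Id3, 1.41 for Smad6, 1.37 for Smad7 and 0.48 for Eng. In sinusoidal-like ECs they were -1.58 for Id1, -1.15 for Id3, -0.78 for Smad6, -0.95 for Smad7 and 1.87 for Bmp4. In metaphyseal-like ECs they were -0.50 for Eng, -0.73 for Smad6 and -0.42 for Smad7, and in arterial-like ECs -1.14 for Bmp4 and 0.26 for Id1. Of these, 7 were lost under at least 1 of 19 alternatives. The arterial-like values were lost under 5 each, that of Bmp4 without adult replicate 2 (-0.80) or aged replicate 1 (-0.97) and that of Id1 without adult replicate 1 (0.20) or 2 (0.30) among them. In metaphyseal-like ECs Smad7 was lost under 5, without adult replicate 2 (-0.34) or aged replicate 1 (-0.36) among them, and Smad6 under 3, without adult replicate 2 (-0.64) or aged replicate 2 (-0.62) among them. In type R-like ECs Smad6 was lost under 2, without adult replicate 2 (1.15) and with types from single marker genes (0.69), and Smad7 with the latter (1.44). In sinusoidal-like ECs Smad6 was lost without integration, at 0.0292. Over all genes, 21.3% of differences passed in sinusoidal-like, 7.6% in arterial-like, 5.05% in type R-like and 3.66% in metaphyseal-like ECs.

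For juvenile against adult ECs, 9 differences passed. They were -1.26 for Bmp4, 0.47 for Id1 and 0.54 for Id3 in sinusoidal-like ECs, -0.33 for Id1, -0.41 for Id3, -1.08 for Smad6 and -0.70 for Smad7 in metaphyseal-like ECs, 0.36 for Eng in arterial-like ECs and -0.48 for Eng in type R-like ECs, where the juvenile sums held 54 and 33 cells. Without juvenile replicate 1 the metaphyseal-like value of Smad6 was -0.29 and no longer passed, and nor did that of Bmp4 in sinusoidal-like ECs (-0.89). The Bmp4 value was also lost with types from single marker genes (-0.29) and with the cluster led by Tagln and Vwf added (-0.72). The Eng value in type R-like ECs was lost under 12 of 19 alternatives, without either juvenile (-0.68 and -0.35) or adult library (-0.46 and -0.49) or aged replicate 1 (-0.47) among them. In metaphyseal-like ECs Id1 was lost without any 1 of the 2 juvenile and 2 adult libraries (-0.28 to -0.36), and Smad7 under 5 of 19, without juvenile replicate 1 (-0.52) or adult replicate 2 (-0.62) among them. That of Eng in arterial-like ECs was lost under 4, without juvenile replicate 2 (0.29) among them, and those of Smad6 (-1.46) and Id3 (-0.31) in metaphyseal-like ECs with types from single marker genes. Over all genes, 3.9% passed in sinusoidal-like, 4.08% in metaphyseal-like, 1.83% in arterial-like and 1.52% in type R-like ECs.

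For alendronate against adult ECs, 10 differences passed. They were 0.95 for Id1, 1.07 for Id3 and 0.85 for Smad7 in type R-like ECs, -0.53 for Id1 and -0.40 for Id3 in sinusoidal-like ECs, -0.25 for Eng, -0.32 for Id3 and -0.51 for Smad7 in metaphyseal-like ECs, and -0.32 for Id1 and -0.35 for Id3 in arterial-like ECs. Without any 1 of the 2 adult and 2 alendronate libraries, the metaphyseal-like values of Eng (-0.25 to -0.26) and Smad7 (-0.43 to -0.60) and the arterial-like value of Id1 (-0.27 to -0.37) were lost, in all under 6, 8 and 5 of 19 alternatives. That of Id3 in arterial-like ECs was lost without adult replicate 2 or alendronate replicate 1 (both -0.30), and that of Smad7 in type R-like ECs under 3, without adult replicate 2 (0.67) or alendronate replicate 1 (0.78) among them. Over all genes, 1.61% passed in sinusoidal-like, 0.769% in metaphyseal-like, 0.9% in arterial-like and 1.26% in type R-like ECs. For PTH against adult ECs, 3 differences passed, -0.64 for Smad6 in metaphyseal-like ECs and 0.37 for Id3 and 0.80 for Smad7 in type R-like ECs, beside 2.3% and 2% of all genes in these types. The value for Id3 was 0.09 without PTH replicate 2 and 0.25 without adult replicate 2, and neither passed. That of Smad6 was lost under 11 of 19 alternatives (-0.77 to -0.48), among them leaving out any adult, PTH or alendronate library. That of Smad7 was lost under 6 of 19, at 0.21 with the cluster led by Tagln and Vwf added, 1.02 and 0.63 without adult replicate 1 or 2 and 0.56 without PTH replicate 2.

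Between PTH and alendronate, 9 differences passed. They were -0.34 for Eng, -0.97 for Id1 and -0.70 for Id3 in type R-like ECs, 0.40 for Acvrl1, 0.57 for Id1 and 0.28 for Id3 in sinusoidal-like ECs, 0.22 for Eng and 0.23 for Id3 in metaphyseal-like ECs, and -1.02 for Bmp4 in arterial-like ECs. The Bmp4 value was lost under 11 of 19 alternatives, without either PTH (-0.95 and -1.31) or alendronate library (-1.07 and -0.98) among them and at 0.51 with types from single marker genes. In metaphyseal-like ECs, Eng was lost under 5, without PTH replicate 2 (0.20) or alendronate replicate 1 (0.23) or 2 (0.22) among them, and Id3 without PTH replicate 1 (0.19) or alendronate replicate 1 (0.21) or 2 (0.25). Eng in type R-like ECs was lost under 4, without PTH replicate 2 (-0.27) or alendronate replicate 2 (-0.29) among them, and Id3 in sinusoidal-like ECs with types from single marker genes (0.21). Over all genes, 3.23% passed in sinusoidal-like, 4.57% in metaphyseal-like, 2.48% in arterial-like and 3.01% in type R-like ECs.

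Of the 46 differences, 19 passed under all 19 alternatives run for them. They include those of Id1 and Id3 in aged and in alendronate type R-like and sinusoidal-like ECs, in PTH against alendronate type R-like ECs and in juvenile sinusoidal-like ECs, and that of Bmp4 in aged sinusoidal-like ECs.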

How the results depend on the processing

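Of 131 called results of single members, 63 kept their call and direction under all alternatives run, 65 lost the call under at least 1 and 6 changed sign under at least 1. Member calls between types numbered 14 and stayed between 13 and 15 under the alternatives. Types from single marker genes gave 1 call for PTH, 5 for alendronate and 7 between the drugs, and 24 called differences of effects between types in place of 46. DESeq2 gave 1 call for PTH, 4 for alendronate and 8 between the drugs, and no filter on low counts gave 2 for PTH. For these changes the cause was not tested. Leaving out each library in turn gave 13 to 15 calls between types, 11 to 15 for juvenile, 23 to 29 for aged, 1 to 6 for PTH, 5 to 10 for alendronate, 9 to 15 between the drugs and 30 to 50 differences of effects. The count for PTH fell to 2 without adult replicate 2 and to 1 without PTH replicate 2, that for alendronate to 6 without adult replicate 1, adult replicate 2 or alendronate replicate 1 and to 5 without alendronate replicate 2, that between the drugs to 9 without either alendronate library, and that of differences of effects to 30 without adult replicate 2. The lone library left in such a group is assumed to vary like the others.

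Signs changed for Bmp4 in metaphyseal-like ECs against the other types (0.15) and for the difference of the Bmp4 effect between the drugs in arterial-like ECs (0.51), both with types from single marker genes. They changed for Smad6 in aged arterial-like ECs (-0.28, called lower) and for the difference of the Smad6 effect of age in sinusoidal-like ECs (0.0292), both without integration. They also changed for Eng in aged type R-like ECs (-0.045) and for the difference of its juvenile effect in type R-like ECs (0.000634), both with the cluster led by Tagln and Vwf added.

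Same-numbered libraries did not deviate together (correlations of -0.036 to 0.045 over 40 comparisons), so the numbers were not taken as pairs. With the replicate block the calls numbered 15 for juvenile, 27 for aged, 5 for PTH, 9 for alendronate and 15 between the drugs. Thinning to 2000 UMIs raised 39 of 40 shares, and the highest type was the same for 9 of 10 members. Depth limits type R-like ECs most, since 3 UMIs are 38.9 CPM in the smallest sum.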

Other observations

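Other genes of the pathway list changed between groups, by edgeR at an adjusted p under 0.05 over all genes tested, and log2 fold changes outside type R-like ECs are given here for the genes with the largest called changes in a comparison, up to 2 in each direction, with the other calls against the adult group for Mgp, Bambi, Hey1 and Fstl1. Mgp, a matrix protein that binds BMP ligands, was higher than in adult ECs in most other groups. In sinusoidal-like ECs it was higher in juvenile (1.09), aged (1.49), PTH (1.56) and alendronate libraries (1.58), and in metaphyseal-like ECs in aged (1.41), PTH (1.4998) and alendronate libraries (2.08). In arterial-like ECs it was higher in aged (0.52) and alendronate (1.03) and lower in juvenile libraries (-0.67), where its cluster led by Gkn3 and Mgp made up 30.3%, 35.7% and 20.2% of cells against 26.1% in adult libraries, a part that was not tested. Between the drugs it was lower with PTH in metaphyseal-like (-0.58) and arterial-like ECs (-0.91).

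Bambi, a pseudoreceptor, fell with alendronate in sinusoidal-like (-0.43), metaphyseal-like (-0.77) and arterial-like ECs (-0.86) and in aged ECs of the same types (-1.48, -1.39 and -1.59). With PTH it rose in metaphyseal-like (0.64) and arterial-like ECs (0.53), and in juvenile ECs it was lower in sinusoidal-like (-0.53) and metaphyseal-like (-0.15) and higher in arterial-like ECs (0.49). Between the drugs it was higher with PTH in all 3 types (0.57, 1.41 and 1.39). Hey1 rose with PTH in sinusoidal-like (2.41), metaphyseal-like (1.44) and arterial-like ECs (0.63) and with alendronate in sinusoidal-like (1.55) and arterial-like ECs (0.50). It was higher in juvenile arterial-like (0.50) and lower in aged sinusoidal-like ECs (-1.56), and between the drugs it was higher with PTH in sinusoidal-like (0.86) and metaphyseal-like ECs (1.26).

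Fstl1, a follistatin-like secreted protein, was higher in juvenile than in adult sinusoidal-like (1.34), metaphyseal-like (1.83) and arterial-like ECs (1.40) and lower in aged ECs of these types (-1.19, -1.14 and -0.58). It also rose in the same 3 types with PTH (0.63, 0.92 and 0.46), and with alendronate in metaphyseal-like (0.26) and arterial-like ECs (0.37), and between the drugs it was higher with PTH in sinusoidal-like (0.65) and metaphyseal-like ECs (0.66). In aged ECs of the 3 types, Acvr2a, an activin and BMP type II receptor, rose by 1.46, 1.56 and 0.97, and Smad4, the common partner Smad, by 1.09, 1.31 and 1.60.

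Among the remaining genes, in sinusoidal-like ECs Gdf6, a BMP family ligand, was lower in juvenile libraries (-3.37, from 73 UMIs in adult and 7 in juvenile sums), as was Tmem100 (-2.30), the antagonist Nbl1 was higher with PTH (1.98), and Kcp, a secreted BMP modulator, was lower in aged libraries (-2.02). Between the drugs, Id4 (-0.45) and Smad5 (-0.35) were lower there with PTH. In metaphyseal-like ECs, Nbl1 was higher with PTH (2.60) and alendronate (2.29), Id2 was higher in juvenile (0.62) and lower in aged (-1.28), PTH (-0.38) and alendronate libraries (-0.26), and Id4 (-1.58) and Atoh8 (-0.76) were lower in juvenile libraries. Aged metaphyseal-like libraries were higher for Tgfb2 (1.88) and for Ltbp1, which stores latent TGF-β, with 2 UMIs in adult and 39 in aged sums. The co-receptor Tgfbr3 was lower with PTH than in adult (-0.39) and alendronate metaphyseal-like ECs (-0.50).

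In arterial-like ECs, the ubiquitin ligase Smurf1 was higher in juvenile (0.74) and the type I receptor Acvr1 in aged libraries (1.43), and Id4 was lower in aged libraries (-0.99). Tmem100 rose with alendronate (0.83) and Tgfb2 fell (-0.58), between the drugs they were -0.50 and 0.53 for PTH against alendronate, and Tgfb2 was lower in juvenile libraries (-0.49). The antagonist Nog was called higher with PTH from 1 UMI in adult and 27 in PTH sums, all 27 in 1 of the 2 PTH libraries.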
